A study of Mus musculus with 6 samples.

Results

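The secretory pathway machinery is described here as 60 genes whose products carry a new protein into the endoplasmic reticulum, fold and glycosylate it, remove it if it fails, and load it into vesicles for the Golgi. The genes were named by function, and the genomic regions that belong to them were those whose nearest protein-coding gene was 1 of the 60. Peaks of 6 ATAC-seq libraries merged into 69171 regions, of which 65361 lay in or within 100 kb of a protein-coding gene and 210 fell to the secretory genes. These 210 regions covered 57 of the 60 genes. Of them 58 lay within 1 kb of a gene end and 152 lay elsewhere, 63 of these inside the gene.

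ATAC-seq marks accessible DNA by the insertion of sequencing adapters with a transposase. The cells came from the bone marrow of naive Balb/c mice that all carry Adig, a transgene in which regulatory sequence of Aire drives GFP, so GFP reports that sequence and not the endogenous gene. The sorted populations, with 2 libraries each, were plasma cells (AireGFP-B220-CD138+TACI+), pc-BMACs (AireGFP+B220-CD138+TACI+), which join plasma cell surface markers to the reporter, and immature B cells (AireGFP-B220+CD138-TACI-IgM+). Each experiment used 2000 to 15000 cells, and whether the 2 libraries of a group stem from different mice is not stated, so the spread between them may be technical.

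Plasma cells are professional secretory cells that release antibody in very large amounts, while immature B cells carry their immunoglobulin at the surface. Antibody chains enter the endoplasmic reticulum through the Sec61 channel, are bound by chaperones such as BiP, receive N-glycans and disulfide bonds, and leave in COPII vesicles. Chains that do not fold are returned to the cytosol and degraded, and the unfolded protein response, through ATF6 and XBP1, raises expression of much of this machinery. ATF6 and XBP1 are known to act through the ER stress element and related short motifs in the promoters of these genes.

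The lists held 34070 to 51643 peaks per library with median widths of 386.5 to 523 bp. The narrowest peaks were 150 bp wide, so values of 150 bp below lie at this floor. The peak lists hold no read counts, so depth is unknown and a region without a peak is not shown to be closed. Both plasma cell libraries had 16 called regions at T and NK cell marker genes, against 4 to 10 in the other libraries, and plasma cells 1 had 7 at erythroid marker genes against 2 or 3. Myeloid marker genes had 18 and 18 called regions in immature B cells, 12 and 12 in plasma cells and 10 and 10 in pc-BMACs. Itgam held 13 of them in each immature B cell library. The part of such other cells in the results below was not tested. B cell marker genes had 64 and 62 called regions in immature B cells, 49 and 50 in plasma cells and 44 and 31 in pc-BMACs. Plasma cell marker genes had 36 to 40 called regions per library, and the populations overlapped.

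The promoters shown first are those of members whose window holds the full ER stress element, since all of them were called accessible in all 6 libraries. RefSeq promoter windows of GRCm38.p6, which run from 250 bases before to 50 bases after the start, matched 51 of the 60 genes in 55 windows. The ER stress element, CCAAT and CCACG separated by 9 bases of any kind, on either strand, was found in 9 of the 51 genes, namely Hspa5, Hsp90b1, Calr, Canx, Creld2, Derl3, Dnajc3, Pdia6 and Syvn1. That is 16.4% of member windows, against 0.119% of all 32851 RefSeq windows of the same length. The 250 bases before the start of 6 of them are printed 5′ to 3′ with the element in capitals, and Herpud1, chosen after its values were seen, is added with a related element, ATTGG and CCACG separated by 1 base, in capitals.
Hspa5, chr2:34771840-34772089, plus strand: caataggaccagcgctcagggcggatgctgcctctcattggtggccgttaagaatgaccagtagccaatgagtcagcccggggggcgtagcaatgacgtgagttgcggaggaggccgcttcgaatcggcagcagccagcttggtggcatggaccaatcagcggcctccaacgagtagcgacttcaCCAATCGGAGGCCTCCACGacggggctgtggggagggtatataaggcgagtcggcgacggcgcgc
Hsp90b1, chr10:86705445-86705694, minus strand: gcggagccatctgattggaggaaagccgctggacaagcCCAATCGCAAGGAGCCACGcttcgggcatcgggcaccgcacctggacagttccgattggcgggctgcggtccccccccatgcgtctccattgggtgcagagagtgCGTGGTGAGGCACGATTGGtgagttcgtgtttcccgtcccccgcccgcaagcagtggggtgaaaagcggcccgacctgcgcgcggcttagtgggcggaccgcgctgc
Calr, chr8:84846932-84847181, minus strand: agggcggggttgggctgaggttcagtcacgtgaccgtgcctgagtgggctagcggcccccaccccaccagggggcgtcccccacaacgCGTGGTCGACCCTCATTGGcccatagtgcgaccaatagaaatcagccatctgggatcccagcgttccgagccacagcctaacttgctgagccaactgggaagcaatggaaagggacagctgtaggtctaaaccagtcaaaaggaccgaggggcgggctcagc
Creld2, chr15:88819396-88819645, plus strand: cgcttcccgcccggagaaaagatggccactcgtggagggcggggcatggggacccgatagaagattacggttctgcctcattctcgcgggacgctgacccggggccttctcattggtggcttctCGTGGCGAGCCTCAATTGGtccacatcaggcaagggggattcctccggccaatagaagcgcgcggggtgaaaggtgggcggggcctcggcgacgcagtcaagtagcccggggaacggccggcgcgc
Canx, chr11:50325674-50325923, minus strand: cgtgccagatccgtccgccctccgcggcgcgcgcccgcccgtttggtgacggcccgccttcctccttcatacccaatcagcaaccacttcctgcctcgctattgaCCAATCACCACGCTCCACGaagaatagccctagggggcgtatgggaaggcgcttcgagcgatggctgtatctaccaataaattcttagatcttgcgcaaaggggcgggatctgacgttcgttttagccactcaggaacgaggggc
Derl3, chr10:75893148-75893397, plus strand: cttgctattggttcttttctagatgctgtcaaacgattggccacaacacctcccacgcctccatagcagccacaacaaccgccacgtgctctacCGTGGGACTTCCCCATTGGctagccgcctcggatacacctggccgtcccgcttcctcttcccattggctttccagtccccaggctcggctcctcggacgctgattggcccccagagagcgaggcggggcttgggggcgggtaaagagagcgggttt
Herpud1, chr8:94386179-94386428, plus strand: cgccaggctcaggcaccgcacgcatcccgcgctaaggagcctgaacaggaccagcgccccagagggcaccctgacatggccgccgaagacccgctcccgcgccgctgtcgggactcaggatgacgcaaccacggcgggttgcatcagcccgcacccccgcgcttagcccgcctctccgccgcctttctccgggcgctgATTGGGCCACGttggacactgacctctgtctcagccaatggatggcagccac
Hspa5, which encodes the chaperone BiP, held its element at positions -65 to -47 from the start on the gene's strand. Hsp90b1, the chaperone GRP94, held 2 elements, 1 on each strand. In Calr and Derl3 the element lay on the opposite strand, at -162 to -144 and -156 to -138. The matches describe letters in the window and show no binding.

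Of 6 motifs searched, all on both strands, this second element was found in Dnajb11 and Herpud1 (3.64% of member windows, 0.0365% of all), and TGACGTGG in Sec23a and Sec24d (3.64% against 0.676%). Shorter motifs were common everywhere. CCACG was present in 70.9% of member windows and 32.8% of all, CCAAT in 63.6% and 37.4%, and the ETS motif CCGGAAG in 25.5% and 8.86%. Of the CCACG matches in member windows 15 of 72, and of the CCAAT matches 12 of 81, lay inside a longer element, while the longer motifs did not overlap each other or the ETS motif. The genes were named for functions that include known targets of the unfolded protein response, so these shares describe the choice of genes as well.

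Secretory promoters were called in every population. All 51 genes with a matched promoter window had a region over it, and for 50 of them that region was called in all 6 libraries. The exception was Kdelr1, a receptor that returns escaped chaperones from the Golgi, whose promoter region was called over 909 and 1094 bp in plasma cells, 1478 and 1307 bp in immature B cells and 1485 bp in pc-BMACs 1 but had no peak in pc-BMACs 2. Of the 58 gene-end regions 51 (87.9%) were called in all 6 libraries, against 71.4% of the 13447 gene-end regions of all genes. Counted by gene, 47 of the 60 members had an assigned end region called everywhere, and 56 did when a region that the nearest-gene rule gave to a neighbour also counted. Spcs1, Srpr and Ssr4 had no assigned region for that reason, since their promoter regions were assigned to Glt8d1, Foxred1 and Idh3g. The other 10 members without an assigned end region called everywhere were Sec61b, Srp54a, Spcs2, Rpn2, Creld2, Pdia3, Edem1, Sec23a, Sec24d and Kdelr1, and each of these had its promoter window called in all 6 libraries except Kdelr1. At Edem1 and Sec24d the region over the window was assigned to the gene itself. That region lay over 1 kb from the gene's ends, so it is counted below as away from gene ends.

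The remaining 7 gene-end regions were not called everywhere. Sec63, a partner of the Sec61 channel, had a region at its far end called over 387 and 246 bp in immature B cells and in no other library (1.72% of gene-end regions, background 4.05%). A gene-end region of Edem1, a lectin-like factor that routes misfolded glycoproteins to degradation, covered 1449 and 895 bp in immature B cells and 1169 bp in pc-BMACs 1, and had no peak in plasma cells or pc-BMACs 2. The promoter window of Edem1 lay under another region, called in all 6 libraries. No gene-end region was called in both libraries of pc-BMACs and neither of plasma cells (background 2.66% of gene-end regions), nor the reverse (background 2.96%). Against immature B cells the counts were also 0 for plasma cells (background 2.36%) and 0 for pc-BMACs (background 4.09%). Immature B cells had 2 gene-end regions absent from plasma cells (Edem1 and Sec63, 3.45% against a background of 5.39%) and 1 absent from pc-BMACs (Sec63, 1.72% against 7.79%). Without pc-BMACs 2 the count for pc-BMACs against plasma cells was 4 and against immature B cells 2.

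**Figure D1:**
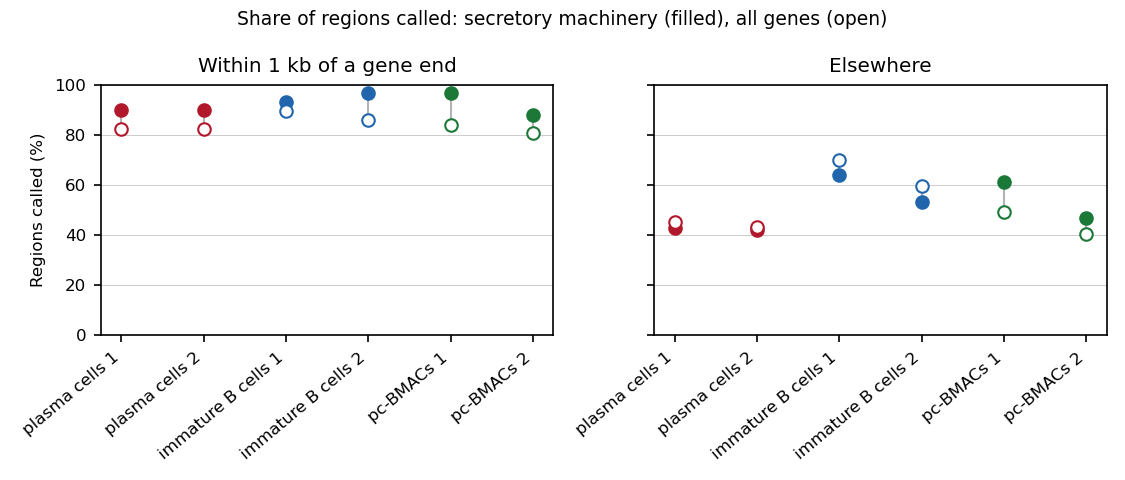
Share of secretory regions (filled) and of all assigned regions (open) called in each of the 6 libraries, in percent, for regions within 1 kb of a gene end (left) and elsewhere (right). At gene ends all libraries called 87.93% to 96.55% of the secretory regions; elsewhere both pc-BMAC libraries lie above their own background and both immature B cell libraries lie below theirs.

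Away from gene ends the populations differed. Plasma cells 1 and 2 called 42.76% and 42.11% of the 152 secretory regions, immature B cells 63.82% and 53.29%, and pc-BMACs 61.18% and 46.71%. The same libraries called 45.12%, 43.34%, 69.82%, 59.44%, 49.09% and 40.54% of all regions away from gene ends. The difference between secretory and all regions was therefore 12.09 and 6.17 percentage points in the pc-BMAC libraries, -6.002 and -6.155 points in immature B cells and -2.354 and -1.234 points in plasma cells. The raw shares overlapped between pc-BMACs and immature B cells, while the differences from the background did not overlap between any populations. Immature B cell lists held 51643 and 46534 peaks, against 34070 to 38607 in the other libraries. With equal numbers of the widest peaks, pc-BMACs had the highest raw share and immature B cells the lowest. With assignment within 20 kb, or without immature B cells 1, pc-BMACs were highest and plasma cells lowest. The part of list length in the raw shares was not tested. With 2 libraries per population these are descriptions.

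By pattern, 29 of the 152 regions were called in all 6 libraries (19.1%, background 20.1%) and 23 in both immature B cell libraries alone (15.1%, background 16.1%). Another 11 were called in both pc-BMAC libraries alone (7.24%, background 5.3%), 10 in plasma cells and pc-BMACs but not immature B cells (6.58%, background 4.28%) and 7 in plasma cells and immature B cells but not pc-BMACs (4.61%, background 5.33%). Plasma cells alone accounted for 2 regions (1.32%, background 1.76%), and immature B cells with pc-BMACs for 2 (1.32%, background 1.2%). The others were called in 1 library (38, or 25%, background 25.5%) or in 1 of the 2 libraries of some population (30, or 19.7%, background 20.4%).

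Set pairwise, pc-BMACs had 27 regions away from gene ends that were called in both of their libraries and neither of immature B cells, at 17 genes (17.8%, background 11.5%). The reverse count was 31 (20.4%, background 25.6%). Against plasma cells, pc-BMACs had 14 such regions at 12 genes (9.21%, background 7.17%), and plasma cells had 10 against pc-BMACs (6.58%, background 7.56%). Plasma cells had 12 against immature B cells (7.89%, background 6.67%), and immature B cells 28 against plasma cells (18.4%, background 19.3%). Most of these shares were near their background, and the widest gap was that of pc-BMACs against immature B cells. Without pc-BMACs 2 the counts of 27 and 14 became 43 and 35. The count of 12 for plasma cells became 19 without plasma cells 2, and the count of 28 for immature B cells became 44 without immature B cells 2, in each case with 1 library left to meet the rule.

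**Figure D2:**
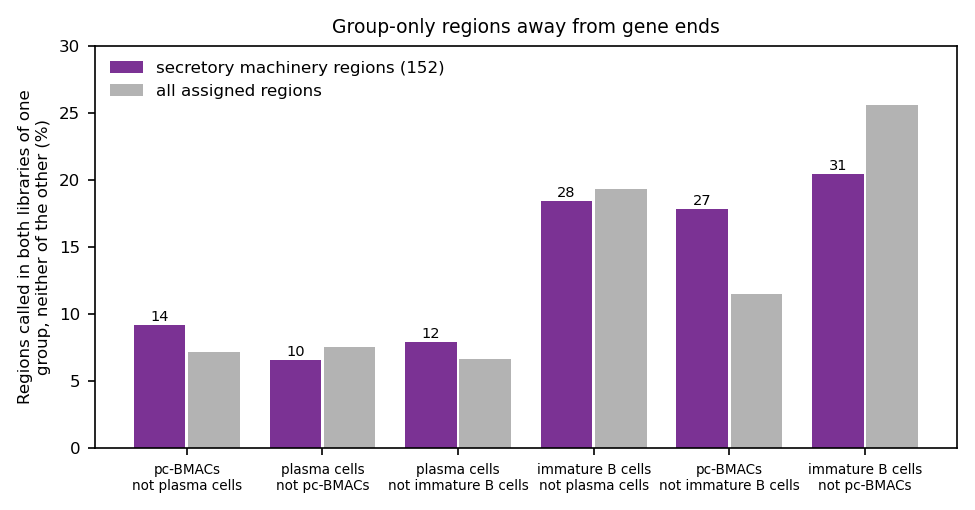
Percent of regions away from gene ends called in both libraries of the first population and neither of the second, for the 152 secretory regions (purple, with the number of regions above each bar) and for all assigned regions (grey). The 27 regions of pc-BMACs against immature B cells are 17.8% beside a background of 11.5%; the other pairs lie closer together.

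Genes of entry into the endoplasmic reticulum are taken first, then those of signal peptide removal. Of 18 regions of the channel genes away from gene ends, plasma cells called 9 and 8, immature B cells 12 and 9 and pc-BMACs 11 and 6. Over all regions away from gene ends the libraries called 45.12% and 43.34%, 69.82% and 59.44%, and 49.09% and 40.54% in that order. The same shares stand beside the counts per library away from gene ends given below for single members. Sec61a1, which forms the pore, had 1 such region, called in pc-BMACs 2, and Sec61b, a smaller subunit, had 1, called in immature B cells 1. Sec61g, another subunit, had a region 53126 bp from the gene that covered 380 and 328 bp in plasma cells and 709 and 528 bp in immature B cells and had no peak in pc-BMACs. Ssr3, of the translocon-associated complex, had a region 50504 bp away called in pc-BMACs alone (260 and 150 bp). Ssr1, of the same complex, had 2 regions in immature B cells alone and 1, 5535 bp away, of 2475 and 847 bp in pc-BMACs and 239 bp in plasma cells 1. Srp9, of the signal recognition particle, had 2 regions called in immature B cells alone, Srp54a had 1 called in pc-BMACs 1, and the signal recognition genes had no region with a peak in both pc-BMAC libraries that both libraries of another population lacked.

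Spcs2, a subunit of the signal peptidase complex, had all 5 of its regions away from its ends. A region 2756 bp from the gene, chr7:99833675-99834813, covered 829 and 827 bp in plasma cells and 1139 and 914 bp in pc-BMACs, with no peak in immature B cells. A second region inside the gene, chr7:99856261-99857027, covered 666 and 675 bp in plasma cells and 758 and 728 bp in pc-BMACs, again with no peak in immature B cells. One more inside the gene was called in pc-BMACs alone (325 and 201 bp). Beside them, a region 4087 bp away was called in immature B cells alone (325 and 358 bp). Spcs3, another subunit, had an intragenic region in plasma cells (310 and 241 bp) and pc-BMACs (311 and 252 bp), and 2 regions outside the gene in immature B cells alone. Sec11c, a catalytic subunit, had none that separated 2 populations, and Sec11a had 1, called in plasma cells (314 and 227 bp) and immature B cells (591 and 355 bp) but not in pc-BMACs.

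Among the genes for N-glycan transfer, Stt3b, a catalytic subunit of oligosaccharyltransferase, had 17 regions, the most of any member. Regions away from its ends were called 4 and 4 times by plasma cell libraries, 8 and 3 times by immature B cell libraries and 9 and 6 times by pc-BMAC libraries. Its most distant region with a population pattern, 90542 bp from the gene at chr9:115401010-115401951, covered 546 and 412 bp in plasma cells and 942 and 768 bp in pc-BMACs and had no peak in immature B cells. A region 77140 bp away was called in plasma cells alone, 2 regions at 11924 and 36293 bp in pc-BMACs alone, and 1 at 47992 bp in immature B cells alone. Distance was measured to the nearest gene, so a far region may belong to another gene. Rpn1, a further subunit, had 2 regions 9241 and 15479 bp away that were called in plasma cells and immature B cells and in neither pc-BMAC library.

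Chaperone genes had 11 regions at gene ends, all called in all 6 libraries, and 14 elsewhere. The share called in all 6 was 87.9% over the secretory gene-end regions and 71.4% over those of all genes. Hspa5 had a single region, at chr2:34771229-34773135, which covered 1371 and 1349 bp in plasma cells, 1832 and 1669 bp in immature B cells and 1777 and 1430 bp in pc-BMACs. Calr, Dnajc3, Sdf2l1 and Manf, which encode folding factors of the endoplasmic reticulum, also had 1 region each, called in all 6 libraries. Dnajb9, a co-chaperone of BiP, was different: of its 7 regions away from gene ends, immature B cells called 6 and 4, pc-BMACs 2 and 1 and plasma cells 0 and 0. Of these 7, 4 regions between 14546 and 46261 bp from the gene were called in immature B cells alone (background 16.1%). They covered 291 and 260, 150 and 150, 150 and 150, and 455 and 357 bp, so some lay at the floor of peak width. Canx had an intragenic region called in immature B cells alone (196 and 190 bp). Dnajb11, a second co-chaperone, went the other way, with a region 3764 bp away that covered 369 and 274 bp in plasma cells and 685 and 705 bp in pc-BMACs and had no peak in immature B cells. Creld2, a folding factor induced by stress, had an intragenic region of 2767 and 1857 bp in pc-BMACs, 705 bp in plasma cells 1 and no peak in the other 3 libraries.

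Among the disulfide isomerases, which form and rearrange disulfide bonds, Pdia4 had all 6 of its regions away from gene ends called in both pc-BMAC libraries, while plasma cells called 4 and 5 and immature B cells 4 and 4. The region 1422 bp from the gene, chr6:47794079-47794719, was called in pc-BMACs alone (641 and 258 bp). Pdia3 had 2 intragenic regions in immature B cells alone (150 and 150 bp, 150 and 187 bp). Pdia6 had 1 region in immature B cells (396 and 354 bp) and pc-BMACs (340 and 313 bp) and not in plasma cells. P4hb had its promoter region only.

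**Figure D3:**
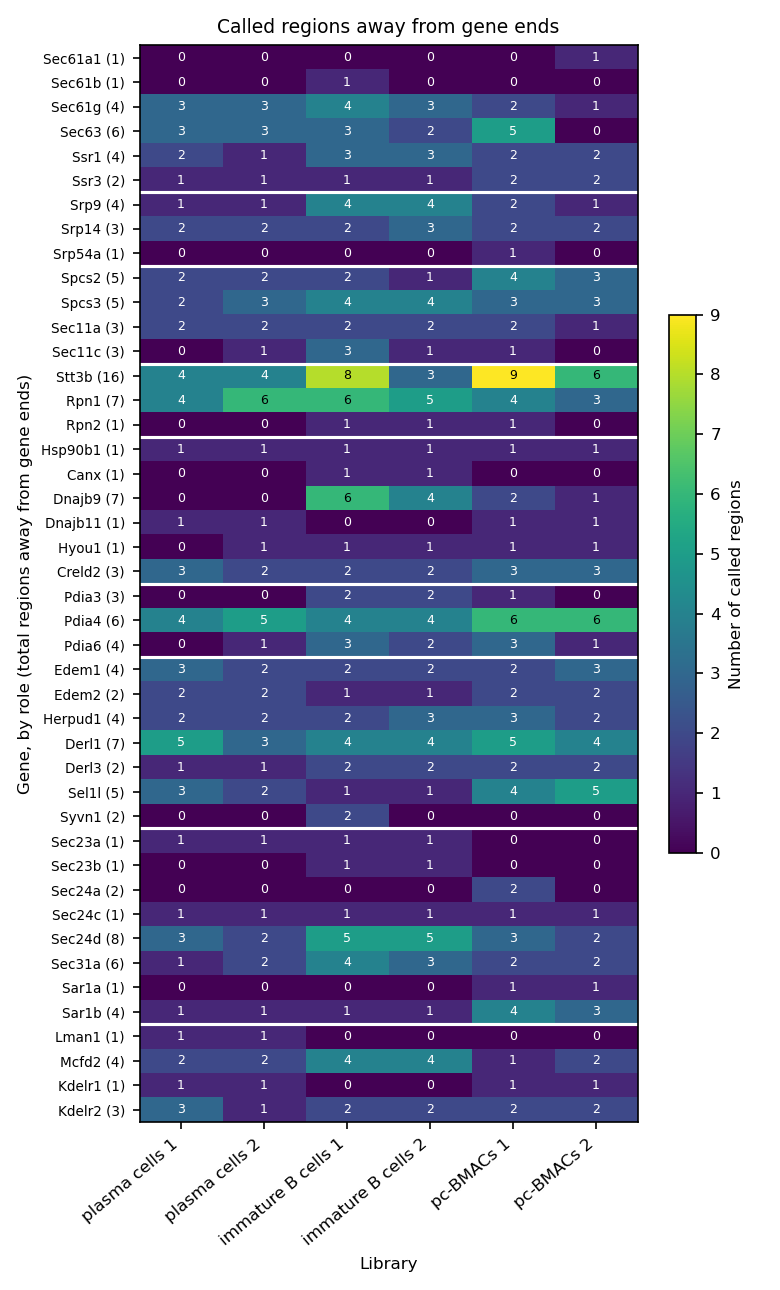
Number of called regions away from gene ends in each library (columns) for the 44 members that have any (rows, grouped by role between white lines, total regions in parentheses). Sel1l, Sar1b and Pdia4 have more called regions in both pc-BMAC libraries than in either immature B cell library, and Dnajb9, Mcfd2 and Srp9 have fewer.

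Genes of ER-associated degradation, which returns misfolded proteins to the cytosol, had 26 regions away from gene ends. Of these, plasma cells called 16 and 12, immature B cells 14 and 13 and pc-BMACs 18 and 18. Over all regions away from gene ends the libraries called 45.12% and 43.34%, 69.82% and 59.44%, and 49.09% and 40.54% in that order. In this role 7 regions of both pc-BMAC libraries had no peak in immature B cells (7 of 26, background 11.5%), and 4 of the 26 were called in plasma cells and pc-BMACs but not immature B cells (background 4.28%). Derl1, a channel-like protein of the degradation complex, had 2 of the latter, at chr15:57875957-57876540 (452 and 367 bp in plasma cells, 562 and 566 bp in pc-BMACs) and chr15:57883442-57884125 (243 and 485 bp, 627 and 635 bp). Edem2, which trims mannose from misfolded glycoproteins, had 1 at chr2:155722674-155723578 (667 and 630 bp, 905 and 733 bp). Derl1 also had 2 regions called in immature B cells alone, so a gene could hold regions of both kinds.

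Sel1l, the adaptor of the ubiquitin ligase Hrd1, had 3 of the 7 pc-BMAC regions without a peak in immature B cells. Inside the gene, chr12:91833948-91834602 covered 273 and 333 bp in plasma cells and 631 and 404 bp in pc-BMACs, and chr12:91823184-91823763 covered 580 and 501 bp in pc-BMACs alone. The next, chr12:91810876-91813374, covered 2479 and 2427 bp in pc-BMACs and 400 bp in plasma cells 1. None of the 3 had a peak in immature B cells. Syvn1, the gene of Hrd1 itself, had 2 regions away from its ends, each called in immature B cells 1 and in no other library.

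Of the COPII coat genes, Sar1b, the small GTPase that starts coat assembly, had 4 and 3 regions away from gene ends in pc-BMACs against 1 in each other library. A region 2019 bp from the gene, chr11:51759699-51761644, covered 1946 and 583 bp in pc-BMACs alone, and an intragenic region covered 363 and 243 bp there. The first of these, outside the gene, lay 2538 bp from Sec24a, another member. The coat genes had 24 of the 152 regions away from gene ends. Of these 24, 5 were called in pc-BMACs alone (background 5.3%), at Sar1a, Sar1b, Sec24d and Sec31a, and 3 in plasma cells and immature B cells but not pc-BMACs (background 5.33%), at Sec23a, Sec24d and Sec31a. Sec24d, a cargo-binding subunit, thus had 1 intragenic region of each kind: 403 and 315 bp in pc-BMACs alone, and 150 and 150 bp in plasma cells with 282 and 233 bp in immature B cells. Sec23b, an inner coat subunit, had 1 region away from its end, in immature B cells alone (489 and 379 bp).

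Among receptors that load or retrieve cargo, Lman1, a lectin that carries glycoproteins out, had a region 21337 bp away called in plasma cells alone (220 and 150 bp). Its partner Mcfd2 had 4 and 4 regions away from gene ends in immature B cells, 2 and 2 in plasma cells and 1 and 2 in pc-BMACs. Kdelr1 had an intragenic region of 515 and 515 bp in plasma cells and 676 and 579 bp in pc-BMACs with no peak in immature B cells. Kdelr2 had none that separated 2 populations.

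Regions called in all 6 libraries could still differ in how much of the region lay under peaks. For the 20468 such regions, 80 of them secretory, the bases under peaks were compared on the log2 scale after centring each library on its median, with limma across all regions and Benjamini-Hochberg adjustment. Of the 80, pc-BMACs were wider than immature B cells at 13 (16.2%, background 9.11%) and narrower at 4 (5%, background 8.89%). Plasma cells were wider than immature B cells at 10 (12.5%, background 4.35%) and narrower at 2 (2.5%, background 3.78%). Between pc-BMACs and plasma cells 3 were wider (3.75%, background 2.65%) and 1 narrower (1.25%, background 2.65%). These backgrounds were not split by class. Gene-end regions were 51 of the 80 and 9601 of the 20468, and they held 9 of the 13 and 7 of the 10. The part of this mix in the shares was not tested. The analysis was added after the presence of peaks had been compared. Median peak widths were 523 and 489 bp in pc-BMACs, 404 and 414 bp in plasma cells and 453 and 386.5 bp in immature B cells, and their part in these calls beyond the centring was not tested. Leaving out single libraries moved the 13 to between 6 and 13 and the 10 to between 5 and 8. Without pc-BMACs 2, pc-BMACs 1 or immature B cells 1 the 13 became 6, 7 and 7, and without plasma cells 1, plasma cells 2, immature B cells 1 or immature B cells 2 the 10 became 5, 5, 5 and 6. The share over all regions was not set beside these counts, so they do not show whether the secretory regions kept their distance from the background. With the R number of the sample descriptions as a block, which left 1 residual degree of freedom, 4 of the 33 calls passed, at Herpud1, Sel1l, Mcfd2 and Edem1 between pc-BMACs and immature B cells.

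Of 16 regions tested in ER-associated degradation, 8 were among the 13 wider in pc-BMACs than in immature B cells (background 9.11%). Another comparison, plasma cells against immature B cells, had 6 of its 10 wider regions in this role (background 4.35%). Several of the 8 lay at the same gene, as at Herpud1 and Edem2, so the regions of the role are not independent of each other. The median log2 difference over the 16 degradation regions was 0.80 for pc-BMACs and 0.57 for plasma cells against immature B cells. The 14 chaperone regions had medians of 0.18 and 0.16 (1, at Sdf2l1, and 0 wider), and the 10 COPII regions 0.24 and 0.28 (1 and 0 wider). Each role mixes gene-end and other regions. Over all gene-end regions the medians were 0.05 and 0.10, and over all regions elsewhere -0.04 and -0.03.

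Herpud1, a stress-induced membrane protein of the degradation complex, had the largest difference between pc-BMACs and immature B cells among the 80 regions. The stretch chr8:94389198-94399471, over the later part of the gene and beyond its end, held 2357 and 2215 bp under peaks in plasma cells, 805 and 650 bp in immature B cells and 10274 and 9592 bp in pc-BMACs. The limits of this region were those of the peak in pc-BMACs 1, and it began just after the promoter region ended. Counted from the start site, the gene ended at 8942 bp and the pc-BMAC peaks began at 2769 and 2867 bp. Plasma cell peaks began at 9083 and 9231 bp, beyond the gene. Immature B cells had separate peaks beyond it, which began at 10842 and 12167 bp in library 1 and 10889 and 12191 bp in library 2. In bases under peaks the 3 populations did not overlap. The log2 difference was 3.87 ± 0.149 (SE) between pc-BMACs and immature B cells (adjusted p = 1.16e-05, limma), 1.88 ± 0.149 between pc-BMACs and plasma cells (adjusted p = 0.00116, limma) and 1.99 ± 0.149 between plasma and immature B cells (adjusted p = 0.000347, limma). These 3 calls passed without each library in turn. With the R number block they had adjusted p of 0.0201, 0.0788 and 0.0506 (limma).

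The promoter region of Herpud1, which holds the element printed above, was much closer between populations. It held 2670 and 2428 bp in plasma cells, 2484 and 2234 bp in immature B cells and 3604 and 3813 bp in pc-BMACs, a log2 difference of 0.75 ± 0.179 between pc-BMACs and immature B cells (adjusted p = 0.0199, limma). That call was lost without immature B cells 1 or pc-BMACs 2. A further region, 18055 bp away, held 816 and 899 bp in plasma cells, 435 and 405 bp in immature B cells and 686 and 737 bp in pc-BMACs, and was wider in plasma cells than in immature B cells by 1.36 ± 0.215 (adjusted p = 0.00668, limma).

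**Figure D4:**
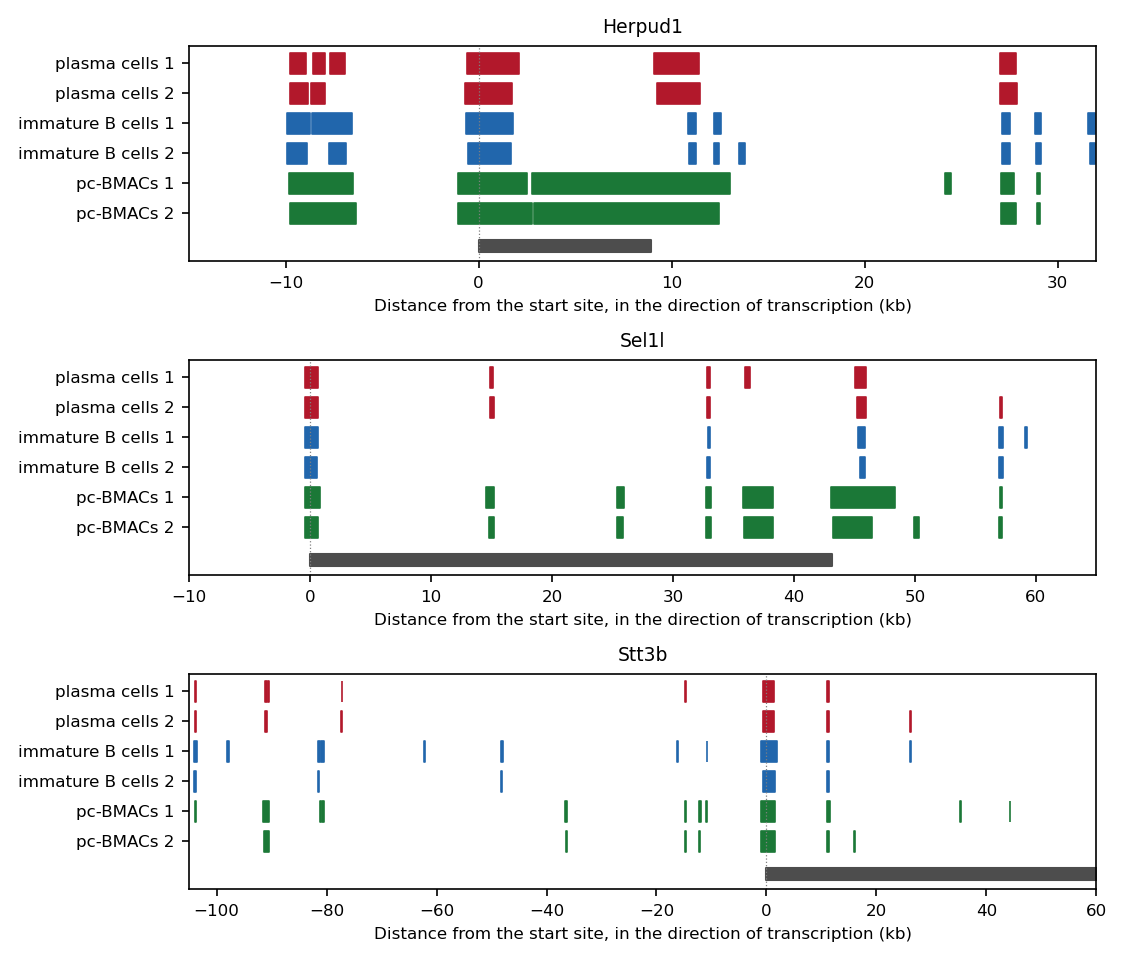
Peaks (coloured bars) of each library around Herpud1, Sel1l and Stt3b, by distance in kb from the start site in the direction of transcription, with the gene as a grey bar. In pc-BMACs (green) the peaks of Herpud1 run from the start to beyond the gene end and those at the far end of Sel1l are 5242 and 3224 bp in total; at Stt3b peaks of different populations are spread over the sequence before the start.

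Sel1l showed the same order at its far end. The region chr12:91800810-91806051 held 872 and 731 bp in plasma cells, 605 and 445 bp in immature B cells and 5242 and 3224 bp in pc-BMACs. It was wider in pc-BMACs by 3.08 ± 0.183 against immature B cells (adjusted p = 6.12e-05, limma) and by 2.12 ± 0.183 against plasma cells (adjusted p = 0.00117, limma), and both calls passed without each library in turn. With the R number block the adjusted p were 0.0201 and 0.0788 (limma). The limits of this region were those of the peak in pc-BMACs 1, which alone reached into the gene. Counted from the start site, the gene ended at 43114 bp. Peaks of the region began at 45068 and 45199 bp in plasma cells, 45295 and 45442 bp in immature B cells and 43106 and 43193 bp in pc-BMACs. The promoter region of Sel1l was even across libraries, at 1056 and 1069, 1125 and 963, and 1232 and 1100 bp in the same order.

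At Derl3, a degradation factor of secretory cells, the promoter region held 1456 and 1255 bp in plasma cells, 1013 and 820 bp in immature B cells and 2499 and 1384 bp in pc-BMACs. It was wider in pc-BMACs than in immature B cells by 1.12 ± 0.204 (adjusted p = 0.00558, limma). Plasma cells were wider by 0.90 ± 0.204 (adjusted p = 0.0291, limma), a call lost without plasma cells 1, immature B cells 1 or immature B cells 2. An intragenic Edem2 region held 519 and 534 bp (plasma cells), 398 and 312 bp (immature B cells) and 765 and 639 bp (pc-BMACs). An Edem1 region 11089 bp from a gene end held 1370 and 1699, 1037 and 964, and 1767 and 1702 bp. In both, every plasma cell and pc-BMAC library lay above every immature B cell library.

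Some regions were narrower. Mcfd2 had a region 50198 bp from the gene with 706 and 844 bp in plasma cells, 1834 and 1290 bp in immature B cells and 665 and 329 bp in pc-BMACs, a log2 difference of -1.62 ± 0.250 between pc-BMACs and immature B cells (adjusted p = 0.00259, limma). Sec11a had a region 3557 bp from a gene end with 231 and 288 bp in plasma cells, 835 and 678 bp in immature B cells and 791 and 612 bp in pc-BMACs, so plasma cells were the low group. Ssr3 had a region 42484 bp from a gene end that was narrowest in pc-BMACs, at 190 and 150 bp against 302 to 376 bp elsewhere. The value of 150 bp is the smallest peak width in the lists. The promoter regions of Hspa5, Hsp90b1, Calr and Canx did not pass in any comparison, and Hspa5 differed by -0.04 ± 0.150 between pc-BMACs and immature B cells (adjusted p = 0.904, limma).

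**Figure D5:**
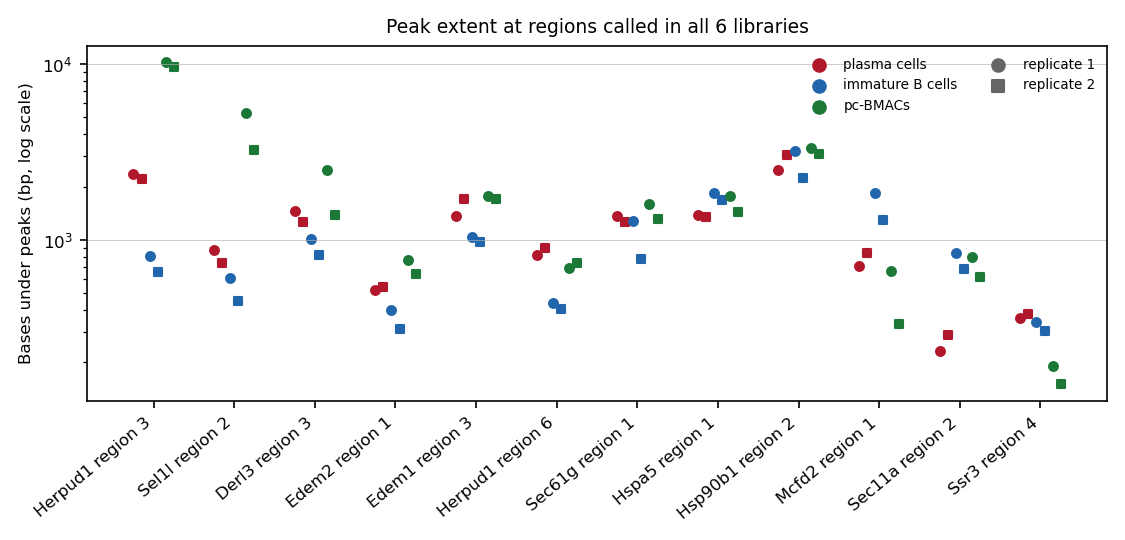
Bases under peaks in each library (log axis) at 12 secretory regions called in all 6 libraries, chosen after their values were seen, with replicates 1 as circles and 2 as squares. pc-BMACs reach 10274 and 9592 bp at the Herpud1 region and 5242 and 3224 bp at the Sel1l region, while all 6 libraries lie between 1349 and 1832 bp at Hspa5 and between 2228 and 3325 bp at Hsp90b1.

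Beyond the 60 members, a list of 43 other secretory pathway genes had 164 regions at 41 genes. Away from gene ends 22 of its 120 regions were called in pc-BMACs and not immature B cells (background 11.5%), and 27 the other way (background 25.6%). The 12 sensors and factors of the unfolded protein response had 80 regions at 11 genes, called 48 and 48 times in plasma cells, 47 and 35 times in immature B cells and 66 and 60 times in pc-BMACs. Of their 67 regions away from gene ends, 21 were called in pc-BMACs and not immature B cells (background 11.5%), and 4 the other way (background 25.6%). Creb3l2, a membrane-bound factor that raises secretory capacity, had 14 and 12 called regions in pc-BMACs against 4 or 5 in the other libraries. Ern1, the IRE1 sensor that splices Xbp1 mRNA, had 14 and 13 called regions in pc-BMACs, while plasma cells had 10 and 10 and immature B cells 9 and 6. Atf6, the sensor named above, had 15 and 13, 10 and 11, and 11 and 6 in that order. No other gene of this list had more called regions in both pc-BMAC libraries than in both plasma cell libraries. Eif2ak3 had 8 or 9 in every library, Atf6b and Mbtps1 had 1 or 2, and Atf4, Ddit3 and Trib3 had 1. Xbp1 had 6 in every plasma cell and pc-BMAC library and 5 and 4 in immature B cells. Mbtps2 had 1 in each pc-BMAC library and 1 to 3 elsewhere. These counts per library have no share over all regions beside them.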

How the data were processed

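The authors deposited 1 ATAC-seq peak list per library, on mm10 per the labels. The submitters' processing notes list Bowtie2 2.3.3, HOMER 4.10 and bedtools with no role for any of them. How peaks were called and lists intersected is not given in the sources used here. Scores in the deposited lists are 1000 in every row and were not used; peak start and end (deposited positions) were. Depth is unknown, so no interval that needs it was computed.

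Peaks were merged at 1 bp of overlap with Python 3.11.15, and a library had a region when 1 of its peaks overlapped it. Each region went to the closest protein-coding gene, at most 100 kb away, in a RefSeq table of GRCm38.p6, the assembly mm10 names; in ties the gene with the nearer end was taken. The table gives no exons, so regions are called intragenic or not. At the 1 kb limit the last region inside was 997 bp from an end (Ssr3) and the first outside 1141 bp (Mcfd2); at 100 kb these were 97663 and 103627 bp (both Stt3b).

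The members, gene lists and motifs were chosen with earlier results of these data known. Genes named are those with a region called in both libraries of one population and neither of another, those without an assigned or universally called end region, the 5 with most regions, and leading genes of each role; others were named after their values were seen. The 4 permutation tests planned for the shares of member regions were run; none could pass the threshold of 0.05, since the smallest exact p for 3 groups of 2 libraries is 0.0667, so they say nothing about the shares. Their p are not given because the members were chosen with results known. Of the 6 motifs only the ER stress element was planned. The comparison of bases under peaks (limma 3.58.1 in R 4.3.3, threshold 0.05) was added after the presence calls were seen. On simulated data the share of shifts it recovered depended strongly on the spread assumed and was low under the wider spread, so regions without a call are not shown to be alike. Alternatives were another overlap, equal numbers of peaks, other distance limits, libraries sharing an R number, and leaving out each library.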

Additional observations from a re-analysis of the deposited data

How the results depend on the processing

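With peaks required to cover 50% of a region, the gene-end counts were 2 for pc-BMACs against plasma cells, 1 for plasma cells against immature B cells and 3 for pc-BMACs against immature B cells. The span between the highest and lowest population in the share called at gene ends was then 10.34 points, with a changed order of populations. With the widest 34070 peaks per library, immature B cells had 9 regions away from gene ends against plasma cells and 15 against pc-BMACs. The span in the difference from background at gene ends was 4.66 points, with immature B cells highest and plasma cells lowest. The span in the share called elsewhere was 17.39 points, with pc-BMACs highest and immature B cells lowest. Both orders had changed. With gene ends taken to 2 kb, the gene-end counts were 1 (pc-BMACs against plasma cells), 1 (plasma cells against immature B cells), 6 (immature B cells against plasma cells), 3 (pc-BMACs against immature B cells) and 5 (immature B cells against pc-BMACs), and the span in the difference from background was 5.58 points, reordered. With assignment within 20 kb, plasma cells had 5 regions elsewhere against pc-BMACs. The span in the share called elsewhere was then 15.87 points, reordered with pc-BMACs highest and plasma cells lowest. In libraries that share an R number, 1 per population, the counts elsewhere were 23 (pc-BMACs against plasma cells), 17 (the reverse), 44 (pc-BMACs against immature B cells) and 48 (the reverse), and at gene ends 1 (plasma cells against pc-BMACs), 4 (immature B cells against plasma cells) and 3 (pc-BMACs against immature B cells). Fewer libraries make the rule easier to meet; the cause of the other shifts was not tested.

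Leaving out each library in turn gave, away from gene ends, 14 to 35 regions for pc-BMACs against plasma cells, 10 to 14 for the reverse, 12 to 19 for plasma cells against immature B cells, 28 to 44 for the reverse, 27 to 43 for pc-BMACs against immature B cells and 31 to 46 for the reverse. At gene ends the ranges were 0 to 4, 0 to 1, 0 to 0, 2 to 4, 0 to 2 and 1 to 3 in that order. The span in share called ranged from 3.51 to 7.14 points at gene ends and 12.24 to 21.81 points elsewhere, and the span in the difference from background from 0.35 to 6.24 and 12.19 to 18.41 points, with orders that changed in some.

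For bases under peaks, every alternative was chosen after seeing the data. Leaving out each library gave 2 to 3 wider and 0 to 3 narrower regions for pc-BMACs against plasma cells, 5 to 8 and 0 to 3 for plasma cells against immature B cells, and 6 to 13 and 1 to 5 for pc-BMACs against immature B cells, and 9 of the 33 calls passed in all 6 such fits. Of the 33 calls, 28 passed with quantile normalization (narrower in pc-BMACs than immature B cells: 2), 26 without a variance trend and 27 with the widest peak alone; no sign changed. A fit on gene-end regions alone, with fewer regions tested, gave 3 wider in plasma cells and 4 in pc-BMACs than in immature B cells and 0 narrower in each of the 3 comparisons. Of the libraries with the same replicate number, immature B cells 1 and pc-BMACs 1 also shared an R number, as did plasma cells 2 and immature B cells 2. Correlations of their deviations were 0.021 (plasma and immature B cells), -0.002 (plasma cells and pc-BMACs) and 0.110 (immature B cells and pc-BMACs). With 2 libraries per group the deviations mirror each other, so these values cannot show whether libraries were paired. With the replicate block 30 of the 33 calls passed. The spans in share called were 5.17 and 16.12 points as without it. The block cannot change these spans, since each replicate number holds 1 library of every population. With the R number block, which left 1 residual degree of freedom, 4 of the 33 calls passed: wider regions numbered 0, 0 and 4, of which 1 was not among the 33, and narrower 0, 0 and 1 for pc-BMACs against plasma cells, plasma cells against immature B cells and pc-BMACs against immature B cells. Counts given without a library or under another setting, here and above, have no share over all regions beside them. They therefore do not compare secretory regions with other regions. Unknown depth limits every count of regions without a peak.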
